A study of Homo sapiens with 6 samples.

Results

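The ZBTB genes encode transcription factors that carry a BTB domain at the amino terminus and C2H2 zinc fingers toward the other end. The BTB domain pairs the proteins with each other and recruits corepressor complexes, and the zinc fingers read DNA, so that most members described so far act as repressors. In blood the family is known for lineage decisions: BCL6 in germinal centre B cells, ZBTB7B in helper T cells, ZBTB46 in dendritic cells, and ZBTB7A, which keeps the fetal globin genes silent in erythroid cells. Chromosomal translocations involve BCL6 in B cell lymphoma and ZBTB16 in acute promyelocytic leukemia.
The members were chosen by name, as probe sets with a single annotated gene symbol that was ZBTB followed by a number, or BCL6, BCL6B, PATZ1, HIC1 or HIC2, with antisense genes left out. This gave 118 of the 54613 probe sets and 46 of the 19775 genes on the arrays. Of the 46 genes, 17 were measured by 1 probe set, and ZBTB20 by the highest number, 12.

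Expression was compared on 6 Affymetrix U133 Plus arrays of K562 cells, a human erythroleukemia line from chronic myeloid leukemia, in 3 stably transfected clones (CL4, CL9 and CL46) that carry a doxycycline (DOX) inducible ERG construct, K562 pTRE ERG. The 3 arrays labelled ERG-induced came from cells given 1 µg/ml DOX for 8 days, and the 3 labelled non-induced came from the same clones without DOX. Effects of ERG and of DOX itself cannot be told apart in this design, each clone was 1 culture per condition, and p-values measure the spread between the clones. The question put to the arrays was which genes change when ERG, an ETS family transcription factor, is overexpressed.
The deposited values are ratios, for most probe sets to their own median over the 6 arrays. Brightness is therefore not known, levels of different genes cannot be set against each other, and the presence of erythroid markers could not be checked. Values are given as log2 ratios, averaged over the probe sets of a gene, in the order CL4, CL9 and CL46, and differences are labelled ERG-induced minus labelled non-induced with the standard error (SE) of the limma fit over 3 arrays against 3. Genes changed by at least 2-fold with p under 0.05 before adjustment were called, the thresholds of the study, and every adjusted p given here is from limma with Benjamini-Hochberg adjustment over all genes, or over all probe sets for a probe set. ERG itself was -0.76 (SE 0.63, adjusted p = 0.671), with -1.35, -0.80 and -0.14 by clone. The arrays are therefore named by their labels, and it is not known whether the ERG probe sets detect the introduced sequence. The ribosomal RNA controls were above their level without DOX by 1.21, 0.59 and 0.82, where the family median differed by 0.01, -0.19 and 0.02 and the median of the 5 genes called lower by -1.82, -1.82 and -1.21. The log2 ratio of 3′ to 5′ control probe sets differed by -0.15, 0.59 and 0.24 for ACTB and by 0.01, 0.06 and -0.01 for GAPDH. The part of RNA quality in the results was not tested. Of 5 erythroid marker genes measured 0 were called, and of 4 megakaryocytic markers also 0, although the median of the 4 was 1.13, -0.17 and 3.45. Of 6 lymphoid and monocyte markers, CD3D alone was called (-1.23, SE 0.46), where 6.32% of all genes were called lower. The other T cell marker, CD3E, differed by 0.31 (SE 0.39), and the monocyte marker CD14 by 2.47 (SE 1.11) without a call. B cell, T cell and monocyte markers each had 1 gene below 0 and 1 above.

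At these thresholds 5 of the 46 family genes were lower and 1 was higher with DOX. The genes that fell were ZBTB33, ZBTB44, ZBTB18, ZBTB37 and ZBTB21, by 2.34-fold to 4.83-fold, and the gene that rose was ZBTB16, by 3.50-fold. Of the family 10.9% were thus called lower and 2.17% higher, against 6.32% and 3.12% of all genes. All 5 lower calls came from the 29 genes with 2 or more probe sets, or 17.2% of them. The 17 genes with 1 probe set held 0 lower calls and the 1 higher call. The same split was not made for all genes. After adjustment 0 of the 46 were below 0.05 in limma, 8 were below it unadjusted, and the lowest adjusted p was 0.192. Over all 19775 genes 0 were likewise below 0.05 after adjustment in limma, 2544 were below it unadjusted, and the lowest adjusted p was 0.101. The family lay on both sides of 0, with 26 genes below and 20 above it and a median of -0.08, against -0.03 for all genes. Centring the arrays brought the family median to 0.02 and quantile normalization to 0.07, while the median of all genes moved by 0.10 and 0.13. Relative to all genes the family median was thus -0.05, -0.05 and -0.03 in the 3 scalings, and 25 of the 46 genes lay below the median of all genes in each. With either scaling 5 family genes were called lower and 2 higher, since ZBTB12 joined the higher ones, and 71.4% of the family calls were lower, against 83.3% without scaling. Over all genes the lower share of the calls was 57.2% with centring, 52.1% with quantile normalization and 67.0% without scaling.

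**Figure D1:**
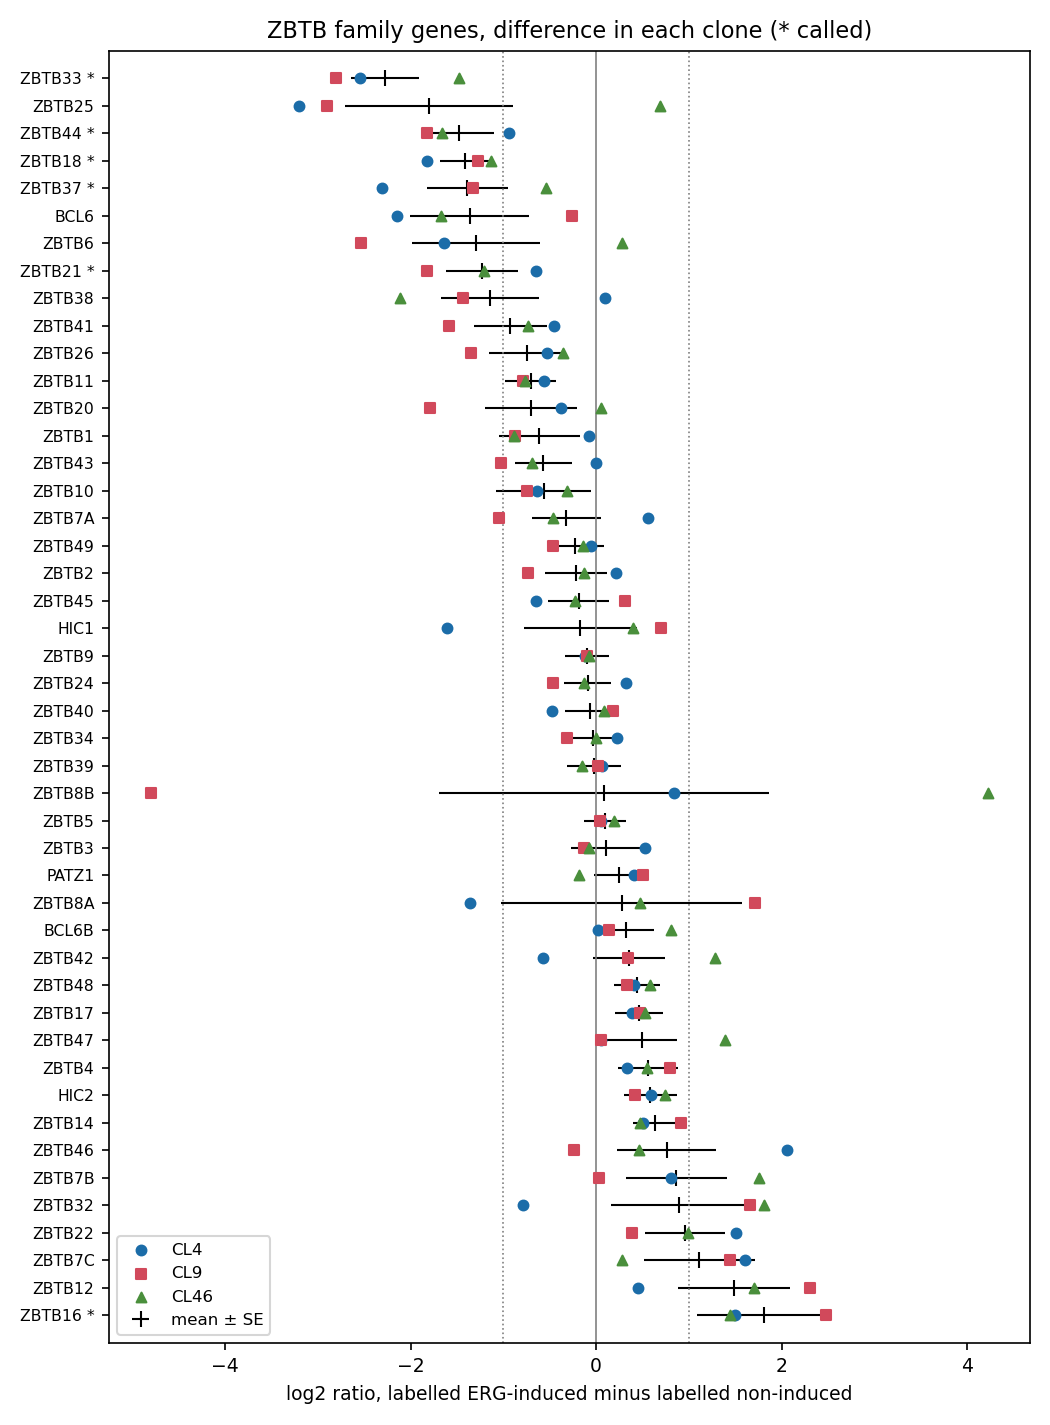
Difference between the arrays with and without DOX on the log2 scale (x axis, ERG-induced minus non-induced) of the 46 ZBTB family genes (y axis), ordered from the lowest mean at the top to the highest. Each symbol is a clone (CL4 blue, CL9 red, CL46 green), each black line the mean with its SE from limma, dotted lines a fold of 2 and asterisks the called genes. ZBTB33 lies lowest at -2.27 and ZBTB16 highest at 1.81, and the 3 clones of ZBTB8B spread from -4.80 to 4.23.

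The promoters of the 5 genes that fell are shown because ERG belongs to the ETS factors, which bind DNA around a GGAA core. The letters CCGGAAG were searched on both strands of the RefSeq promoters of GRCh38.p14, from 250 bases before to 50 bases after each annotated start. Sequences run 5′ to 3′ on the strand of the gene over the 250 bases before the start, for ZBTB18 at the first of its 3 annotated starts, in lower case with matches to CCGGAAG or its reverse complement in capitals.
ZBTB33, chrX:120250562-120250811, plus strand: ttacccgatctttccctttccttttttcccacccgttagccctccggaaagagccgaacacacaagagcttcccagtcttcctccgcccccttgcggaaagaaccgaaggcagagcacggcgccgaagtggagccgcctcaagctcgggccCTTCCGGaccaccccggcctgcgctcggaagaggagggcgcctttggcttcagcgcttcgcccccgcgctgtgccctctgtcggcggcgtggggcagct
ZBTB37, chr1:173868130-173868379, plus strand: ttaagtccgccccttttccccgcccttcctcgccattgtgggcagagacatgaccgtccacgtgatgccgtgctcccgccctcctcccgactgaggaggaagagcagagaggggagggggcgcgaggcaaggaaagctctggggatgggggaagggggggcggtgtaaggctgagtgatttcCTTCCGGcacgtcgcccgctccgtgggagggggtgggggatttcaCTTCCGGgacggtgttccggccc
ZBTB44, chr11:130314918-130315167, minus strand: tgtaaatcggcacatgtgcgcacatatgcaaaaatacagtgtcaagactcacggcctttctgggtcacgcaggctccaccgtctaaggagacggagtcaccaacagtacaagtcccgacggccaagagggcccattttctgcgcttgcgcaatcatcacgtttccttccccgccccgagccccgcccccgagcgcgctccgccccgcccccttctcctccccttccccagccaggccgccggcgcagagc
ZBTB18, chr1:244048403-244048652, plus strand: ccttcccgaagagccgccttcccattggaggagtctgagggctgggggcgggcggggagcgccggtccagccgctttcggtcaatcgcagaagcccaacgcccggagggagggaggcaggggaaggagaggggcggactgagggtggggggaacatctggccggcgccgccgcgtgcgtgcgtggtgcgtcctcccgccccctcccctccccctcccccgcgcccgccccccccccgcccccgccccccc
ZBTB21, chr21:42010361-42010610, minus strand: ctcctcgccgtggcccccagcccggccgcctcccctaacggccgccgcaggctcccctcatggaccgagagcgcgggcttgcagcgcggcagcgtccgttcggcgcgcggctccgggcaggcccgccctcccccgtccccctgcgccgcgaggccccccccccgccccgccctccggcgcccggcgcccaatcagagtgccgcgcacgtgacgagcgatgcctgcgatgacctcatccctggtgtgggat
ZBTB33 held 1 match, beginning at position -99 from the start, and ZBTB37 held 2, at -68 and -23, while the windows of ZBTB44, ZBTB18 and ZBTB21 held none, the other starts of ZBTB18 included. Promoters of 37 of the 46 genes were available, ZBTB16 not among them. Of these genes 13 held a match in at least 1 of their promoters, which is 35.1%, against 16.5% of 15843 protein-coding genes and 12.2% of all 27305 genes with a promoter. By promoter the shares were 19.7% of 71 for the family, against 12.8% of 22199 for protein-coding genes and 10.3% of 35116 for all. The genes called lower and those not called differed little in this count, with 2 of 5 and 11 of 32 genes. A sequence reported for Kaiso, TCCTGCNA on either strand, lay in 5 of the 71 family promoters or 7.04%, that of the second start of ZBTB18 included, against 4.69% of all. A match is a description of the letters and not a site that was shown to be bound.

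Among the 3 members known to bind methylated DNA, ZBTB33 fell, and ZBTB38 and ZBTB4 were not called. The 1 call of 3 stands beside 6.32% of all genes called lower. ZBTB33, also named Kaiso, reads methylated CpG pairs as well as an unmethylated sequence, and is a partner of the p120 catenin. Its log2 ratio was -1.98, -1.91 and -0.93 on the arrays labelled ERG-induced, against 0.56, 0.89 and 0.55 on those labelled non-induced. The groups did not overlap, and the smallest difference, -1.48, was that of CL46. ZBTB33 fell by a factor of 4.83 (log2 difference -2.27, SE 0.37, adjusted p = 0.192). Both of its probe sets were called lower, at -3.14 and -1.41, and the call held without any single clone, with differences of -2.01 to -2.67.
ZBTB38, a Kaiso-like protein that also binds methylated DNA, had log2 ratios of 0.10, -1.48 and -1.16 on the arrays labelled ERG-induced, against -0.00, -0.05 and 0.95 on those labelled non-induced. CL4 stood apart, with a difference of 0.10 against -1.43 in CL9 and -2.11 in CL46, and the gene mean of -1.15 (SE 0.53, adjusted p = 0.438) was not called. Its 5 probe sets spanned -2.68 to 0.73. Of these, 225512_at (-1.64, SE 0.33) and 219221_at (-1.49, SE 0.43) were called lower and below 0 in all 3 clones, and the probe set above 0, 230754_at, had an SE of 1.05 with 2.47 in CL4 and -2.53 in CL46. ZBTB38 was called lower with the median over its probe sets (-1.27) or without CL4 (-1.77). ZBTB4, the other Kaiso-like member, differed by 0.56 (SE 0.32, adjusted p = 0.537), above 0 in all 3 clones and in both probe sets.

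Of the 11 members placed with blood and immune lineages, ZBTB16 rose and 0 fell, and the median of the 11 was 0.24. The 1 call is 9.09% higher, where 3.12% of all genes were called higher and 6.32% lower. ZBTB16, also named PLZF, directs innate-like T cells and maintains germline stem cells. Its log2 ratio was 1.10, 0.07 and 1.38 on the arrays labelled ERG-induced, against -0.40, -2.41 and -0.07 on those labelled non-induced. The groups did not overlap, and the array labelled non-induced of CL9 lay far below the other arrays. ZBTB16 was 3.50-fold higher (log2 difference 1.81, SE 0.72, adjusted p = 0.383). The call rested on 1 probe set, which was not called in the fit over single probe sets (adjusted p = 0.391), and it was lost without CL4 (1.96) or CL46 (1.99) and without variance moderation (1.81).
BCL6, the repressor that sustains germinal centre B cells, had log2 ratios of -1.47, -0.47 and 0.10 on the arrays labelled ERG-induced, against 0.68, -0.21 and 1.77 on those labelled non-induced. All 3 clones were lower, by 2.15, 0.26 and 1.67, but the groups overlapped and the mean of -1.36 (SE 0.64, adjusted p = 0.448) was not called. Its 3 probe sets gave -2.03, -1.35 and -0.70, and the first was called lower although CL9 gave 0.06 there. A BCL6-type sequence, TTCCTNGAA on either strand, lay in 1 of the 71 promoters of the family, a promoter of BCL6 itself, and in 1.56% of all promoters. BCL6B, its nearest relative, differed by 0.32 (SE 0.30).
ZBTB7A, the globin repressor also named LRF, differed by -0.32 (SE 0.38, adjusted p = 0.782), with 0.56, -1.05 and -0.47 by clone, and 0 of its 6 probe sets were called. PATZ1, which acts in T cell development, differed by 0.24 (SE 0.27), and ZBTB7B by 0.87 (SE 0.54). ZBTB20, which in mouse represses the alpha-fetoprotein gene in liver and acts in plasma cells, differed by -0.70 (SE 0.49, adjusted p = 0.614), and its 12 probe sets spanned -2.12 to 0.71 with 1 called lower. ZBTB46 gave 2.06, -0.24 and 0.47 and ZBTB32, a regulator of lymphocyte activation, -0.79, 1.66 and 1.81, so that for both genes the clones lay on either side of 0.
ZBTB25 and ZBTB1 lie head to head on chromosome 14, where their annotated promoters overlap by up to 148 bases on opposite strands. ZBTB25, measured by 1 probe set, was -2.96, -2.23 and 0.41 on the arrays labelled ERG-induced, against 0.23, 0.67 and -0.28 on those labelled non-induced. Clone CL46 thus went the other way from CL4 and CL9, and the difference of -1.80 (SE 0.90, adjusted p = 0.471) was not called, whereas it was without CL46 (-3.05). ZBTB1, which is needed for lymphoid development in mouse, differed by -0.61 (SE 0.43), with -0.08, -0.87 and -0.88, and 1 of its 3 probe sets was called lower (-1.03).

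**Figure D2:**
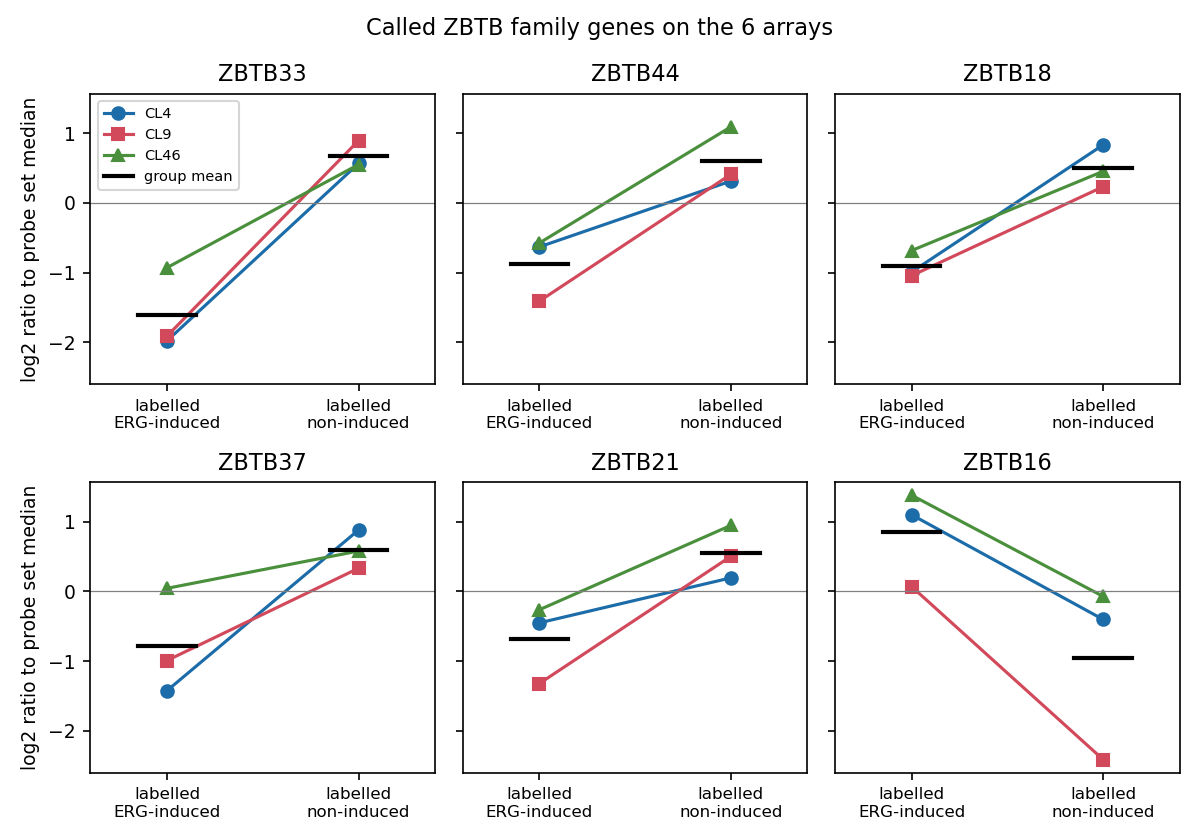
Log2 ratio to the probe set median (y axis) of the 6 called ZBTB family genes on the arrays labelled ERG-induced (left) and non-induced (right). Lines join the 2 arrays of a clone and black bars are group means over 3 arrays. The groups do not overlap in any of the 6 genes, which were called on these same values, so this adds no support to the calls. Over all genes 13.6% were lower and 7.98% higher without overlap. ZBTB16 of CL9 without DOX lies at -2.41.

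Of the members with few described roles, the largest of the groups with 17 genes, 3 were lower and 0 higher, or 17.6% lower, beside 6.32% of all genes. ZBTB44 had log2 ratios of -0.63, -1.41 and -0.58 on the arrays labelled ERG-induced, against 0.31, 0.41 and 1.09 on those labelled non-induced. All 3 clones were lower and the groups did not overlap. It fell by a factor of 2.78 (log2 difference -1.47, SE 0.37, adjusted p = 0.243), and without any single clone the call held, at -1.30 to -1.74. Of its 5 probe sets 4 were called lower, from -1.10 to -2.15, and the other gave -1.19 (SE 0.66), so that ZBTB44 had the most called probe sets of the 46 genes.
ZBTB37 was -1.42, -0.99 and 0.04 on the arrays labelled ERG-induced, against 0.88, 0.33 and 0.58 on those labelled non-induced. Its difference of -1.39 (SE 0.44, adjusted p = 0.306) was 2.30 in size in CL4 and 0.53 in CL46, and the call was lost without CL4 (-0.93) or CL9 (-1.42). The 3 probe sets gave -1.98, -1.17 and -1.01, of which 228216_at (-1.98, SE 0.29) was called, with -1.79, -2.26 and -1.88 by clone, and the others had an SE of 0.91 and 0.94. ZBTB21 was -0.45, -1.32 and -0.26 on the arrays labelled ERG-induced, against 0.19, 0.50 and 0.95 on those labelled non-induced. Its difference of -1.23 (SE 0.39, adjusted p = 0.306) was largest in CL9, at -1.82, and the call was lost without CL9 (-0.93) or CL46 (-1.23). Both probe sets were below 0 in every clone, at -1.40 and -1.05, and the first was called.
ZBTB18, also named RP58, is a repressor of the developing cerebral cortex. Its log2 ratio was -0.99, -1.04 and -0.68 on the arrays labelled ERG-induced, against 0.83, 0.23 and 0.45 on those labelled non-induced, with no overlap, and the difference was -1.41 (SE 0.28, adjusted p = 0.192). That mean joined 2 probe sets that went opposite ways. The probe set 207164_s_at gave -3.19 (SE 0.41, adjusted p = 0.156), with -4.13, -2.83 and -2.60 by clone, while 212774_at gave 0.36 (SE 0.27), with 0.49, 0.28 and 0.33. The direction of ZBTB18 as a gene therefore depended on the probe set taken, and with the probe set of the highest mean it was 0.36. That mean was taken over the log2 ratios of the 6 arrays, the same values that were compared, so it does not mark the brighter probe set.

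**Figure D3:**
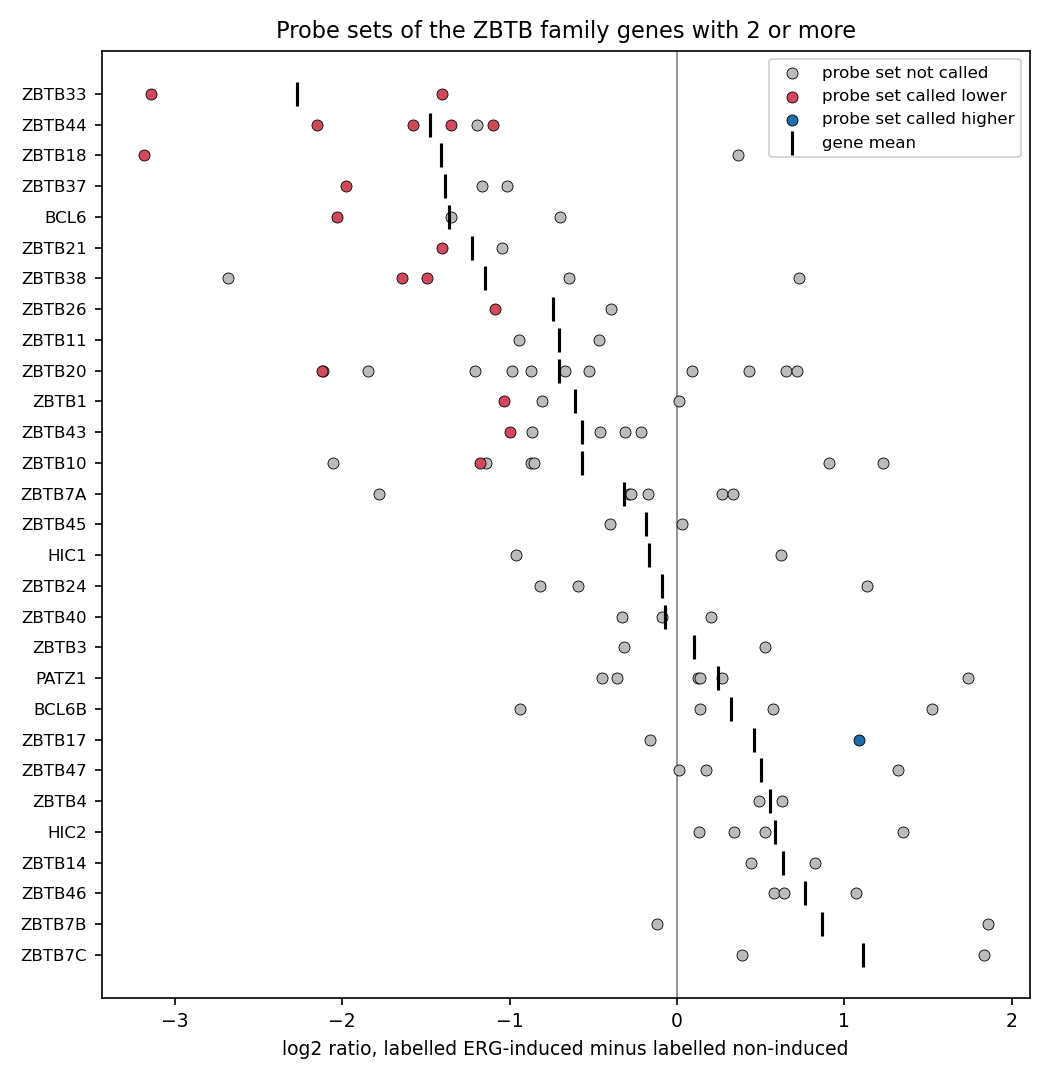
Difference on the log2 scale (x axis, ERG-induced minus non-induced) of each probe set of the 29 ZBTB family genes with 2 or more, ordered by the gene mean (black bar). Red points were called lower, blue points higher and grey points neither. ZBTB44 holds 4 red points, ZBTB18 holds a red point at -3.19 and a grey point at 0.36, and 1 blue point belongs to ZBTB17.

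Over single probe sets, 17 of the 118 were called lower and 1 higher, which is 14.4% and 0.847%, against 8.16% and 2.82% of all probe sets. The probe sets of a gene share their transcript, and the 18 calls came from 13 genes, 7 of which had a probe set called lower without being called as a gene. These counts depended on the setting: 17 lower and 6 higher with the clone as a block, 11 and 5 with quantile normalization, 7 and 5 without CL9, and 10 and 1 without CL46. Of the 29 genes with several probe sets, 8 had all of them below 0, 6 had all above 0, and 15 had both signs. Replicate spread differed widely between probe sets, with an SE from 0.247 to 1.81 and above 1 in 24 of the 118.
Without regard to size, of the 46 family genes 7 were lower and 8 higher with no overlap between the 2 groups of arrays. Over all 19775 genes the counts were 2685 and 1579, or 13.6% and 7.98%. Of the 118 family probe sets 26 were lower and 15 higher without overlap, beside 15.1% and 7.14% of all probe sets. The 7 genes were the 5 called ones with ZBTB41 and ZBTB11. ZBTB41 was -0.14, -1.46 and -0.45 on the arrays labelled ERG-induced, against 0.31, 0.13 and 0.29 on those labelled non-induced, a difference of -0.92 (SE 0.40, adjusted p = 0.413). ZBTB11, whose loss in zebrafish impairs neutrophil development, differed by -0.70 (SE 0.27, adjusted p = 0.368) with a narrow range over the clones, -0.56 to -0.79.
The 8 genes that were higher were ZBTB16, ZBTB12, ZBTB7C, ZBTB22, ZBTB14, HIC2, ZBTB17 and ZBTB48. ZBTB12 was 0.43, 0.05 and 0.02 on the arrays labelled ERG-induced, against -0.02, -2.25 and -1.69 on those labelled non-induced. Its difference of 1.49 (SE 0.61, adjusted p = 0.392) fell short of a call, and it passed with clone as a blocking term (adjusted p = 0.371), with either array scaling (1.59 and 1.54) and without CL4 (adjusted p = 0.368). ZBTB22 differed by 0.96 (SE 0.43, adjusted p = 0.429), was above 0 in all 3 clones, and was called without CL9 (1.25). ZBTB14 had a smaller and more even difference of 0.63 (SE 0.23, adjusted p = 0.352), with 0.50, 0.92 and 0.48 by clone.

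None of the 7 members placed with growth control and the p53 pathway was called, where 3.12% of all genes were called higher and 6.32% lower. ZBTB17, also named MIZ1, partners MYC in repressing cell cycle inhibitors. It was 0.36, 0.01 and 0.29 on the arrays labelled ERG-induced, against -0.03, -0.46 and -0.25 on those labelled non-induced, a difference of 0.46 (SE 0.26, adjusted p = 0.513). Its 2 probe sets disagreed, since 203601_s_at was the only family probe set called higher (1.08, with 1.08, 1.13 and 1.04 by clone) and 203602_s_at gave -0.16 (SE 0.25).
HIC1, a tumor suppressor induced by p53, gave -1.61, 0.70 and 0.40 by clone (mean -0.17, SE 0.61), while HIC2, its paralog, gave 0.60, 0.42 and 0.74 (mean 0.59, SE 0.28, adjusted p = 0.456). ZBTB7C, a relative of ZBTB7A, differed by 1.11 (SE 0.60, adjusted p = 0.502), but by 0.39 with the probe sets of a median below 1 left out. ZBTB2 (-0.22), ZBTB5 (0.10) and ZBTB49 (-0.22) had differences smaller than their SE.
Of the 5 members tied to telomeres, centromeres or DNA structure 0 were called, beside 3.12% of all genes higher and 6.32% lower. ZBTB48, which binds telomeric repeats and limits telomere length, differed by 0.44 (SE 0.25, adjusted p = 0.526), with 0.41, 0.34 and 0.58 by clone. ZBTB24, mutated in an immunodeficiency with centromere instability, differed by -0.09 (SE 0.26), and its 3 probe sets ran from -0.82 to 1.13. ZBTB10, which binds variant telomeric repeats, differed by -0.57 (SE 0.51), and 1 of its 7 probe sets was called lower (-1.17). ZBTB43 (-0.57, SE 0.31) also had 1 called probe set among 5, and ZBTB40 (-0.07, SE 0.26) had none among 3.
Members that neighbour each other on a chromosome differed in how alike their values were. ZBTB6 and ZBTB26 lie next to each other on chromosome 9 and differed by -1.30 (SE 0.69) and -0.74 (SE 0.41), with CL9 the lowest clone in both, at -2.53 and -1.34. Of the 2 probe sets of ZBTB26, 1 was called lower (-1.09). ZBTB6 was called lower only without CL46 (-2.08) among the settings tried. ZBTB43 and ZBTB34, neighbours elsewhere on chromosome 9, differed by -0.57 and -0.03. The adjacent genes ZBTB8B and ZBTB8A of chromosome 1 had the widest spread of the family, with an SE of 1.78 and 1.30.

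Corepressors and partners of BTB zinc finger proteins were described from a list of 30 genes, of which 27 were analysed here. Of the 27, 1 was called lower and 0 higher, or 3.7% lower, near the 6.32% of all genes, and their median was 0.09. The gene called lower was the histone deacetylase HDAC2 (-1.52, SE 0.60, adjusted p = 0.381), with -0.40, -1.97 and -2.20 by clone. HDAC3, another histone deacetylase, differed by 0.30 (SE 0.23), BCOR, which binds the BCL6 BTB domain, by 0.04 (SE 0.23), and CUL3, the ubiquitin ligase scaffold that BTB proteins can engage, by -0.96 (SE 0.58).
Genes reported elsewhere as targets of family members numbered 42, of which 36 were measured, 3 were called higher and 3 lower, or 8.33% in each direction, against 3.12% and 6.32% of all genes, and the median was 0.07. The list was chosen with results of these data known, and the called members are the ones named first. SIRT1, a deacetylase gene repressed by HIC1, was -1.09 (SE 0.24, adjusted p = 0.211), with -1.05, -0.95 and -1.27 by clone. Among reported Kaiso targets MMP7, a matrix protease, was lower (-2.39, SE 0.66) and the WNT ligand WNT11 was higher (3.95, SE 0.66, adjusted p = 0.192). The ephrin EFNA1, another reported HIC1 target, was higher (3.30, SE 1.18, with 6.33 in CL46), and CDKN1C, a cell cycle inhibitor, rose by a log2 difference of 1.24 (SE 0.47). The checkpoint kinase ATR, which BCL6 represses in B cells, had the largest fall of the list (-2.96, SE 0.59). WNT11 and ATR were also genes of interest for ERG itself in the study, so their places on the list are not particular to Kaiso or BCL6. Of the 30 members not called, the differentiation inhibitor ID3 differed by 0.97 (SE 0.26, adjusted p = 0.256), the cyclin gene CCND1 by 0.36 (SE 0.40), and the cell cycle inhibitor CDKN1A, repressed by several family members, by 0.31 (SE 0.44).
Zinc finger genes with the symbol ZNF and a number were counted as the nearest larger group. The ZBTB family had 10.9% of its genes lower and 2.17% higher and a median of -0.08, against 55 lower and 7 higher of the 466 ZNF genes, or 11.8% and 1.5%, and a median of -0.23. The difference between the 2 groups of genes was not tested. MYNN, a BTB zinc finger gene outside the naming scheme, differed by -0.70 (SE 0.25, adjusted p = 0.343), and GZF1, another, by 0.25 (SE 0.41).

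**Figure D4:**
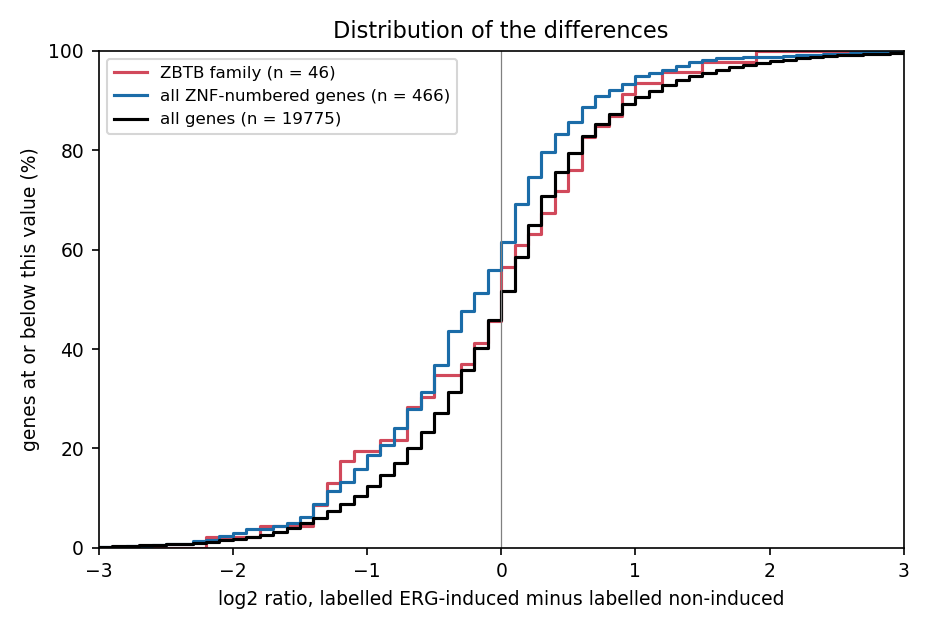
Share of genes (y axis, %) whose difference on the log2 scale (x axis, ERG-induced minus non-induced) lies at or below each value, in steps of 0.1, for the 46 ZBTB family genes, the 466 ZNF genes and all 19775 genes. The ZBTB line runs close to the ZNF line below -0.5 and close to that of all genes above 0, and the medians are -0.08, -0.23 and -0.03.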

How the data were processed

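The members, gene lists and tests were chosen with earlier results of these data known. The authors hybridized the arrays and analysed them in GeneSpring. In the deposited table every array has a linear ratio for each probe set, and the median over the 6 arrays was 1 (tolerance 1e-05) in 50737 of 54675 probe sets. In the other 3938, 4 of them in the family, it was below 1, and what these were divided by is not known. The sources used here do not give background correction or array scaling before that division. Labels and methods give 8 days of DOX, and a legend of the array experiment gives 6.

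After removal of 62 control probe sets, log2 values of the ratios were taken, and the 41091 probe sets with 1 symbol in the platform annotation were averaged by gene (41037 of them matched a RefSeq gene ID). limma 3.58.1 in R 4.3.3 compared the groups, two-sided, with lmFit and eBayes over all 19775 genes and again over all 54613 probe sets. Promoters came from RefSeq tables of GRCh38.p14. Of family members, the called genes and the 12 others with the smallest p were to be given in full. The clone pairs the arrays, since both come from the same transfected line; deviations from the group mean correlated between the 2 arrays of a clone, across genes, by 0.04, 0.05 and 0.03 in CL4, CL9 and CL46. Alternatives were the clone as a block, array scalings, other ways of joining probe sets, other thresholds and leaving out each clone; the block, the scalings and the left-out clones on single probe sets were added after the data were seen. The fit was tested on simulated data. Value columns of no mapped sample numbered 0.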

Additional observations from a re-analysis of the deposited data

Results flagged for a closer look

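ZBTB46-AS1, an antisense gene that the naming rule left out of the family, was picked up because it carried a call outside the family. It was the only one called of 8 probe sets with ZBTB in the symbol that the rule left out. Over all probe sets 8.16% were called lower. Its only probe set was -0.75, -1.18 and -1.12 with DOX, against 2.86, 0.49 and 1.74 without DOX, with no overlap. This difference of -2.71 (SE 0.63, adjusted p = 0.210 in limma over all probe sets) was called lower. ZBTB46 itself was not called (0.76, SE 0.53), and its clones, at 2.06, -0.24 and 0.47, lay on either side of 0.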

How the results depend on the processing

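With the clone as a replicate block, centred arrays or quantile normalization, the 5 genes called lower and the 1 called higher kept their calls and ZBTB12 joined them (2 higher in each). The block changed no other family call by gene. Without variance moderation 0 were higher, since ZBTB16 lost its call, and 369 of all genes were higher, against 617. With a fold of 1.5, or with no fold threshold, 6 were lower and 2 higher. Leaving out each clone gave 3 to 6 lower and 0 to 2 higher; without CL9 only ZBTB33, ZBTB44 and ZBTB18 stayed lower. Over single probe sets these ranges were 7 to 13 lower and 1 to 5 higher, against 17 and 1, and 4 were higher with centred arrays and 5 with quantile normalization, which left 11 lower. With the block, 6 were higher. With the probe set of the highest mean log2 ratio, ZBTB18 was 0.36 and ZBTB33 -1.41. ZBTB18, ZBTB37 (-1.01) and ZBTB16 lost their calls, and BCL6 (-2.03) and ZBTB17 were called. That choice rested on the same ratios that were compared and not on brightness, so it is no independent check of a call. With the median over probe sets, ZBTB37 (-1.06) lost its call and ZBTB38 (-1.27) gained one. Why these values moved was not tested. The ratios carry no brightness, so signal over background could not limit the probe sets used, and the 3 clones limit the precision.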
